A study of Homo sapiens with 6 samples.

Results

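Small nucleolar RNAs and small Cajal body RNAs are short non-coding RNAs, mostly cut out of the introns of longer genes, and 192 of the 18417 genes measured here belong to them. They were taken by symbol: every probe set annotated with 1 gene symbol that began with SNORD, SNORA or SCARNA counted, host gene symbols ending in HG did not, and a gene with several probe sets was represented by the one with the highest mean over 6 arrays. That gave 115 C/D box members (SNORD), 61 H/ACA box members (SNORA) and 16 Cajal body members (SCARNA), in 198 probe sets, with 5 members having more than 1. A further 76 probe sets carried a member's symbol together with other symbols and were kept out of every count, among them those of the U3 RNA (SNORD3A) and of most members inside SNHG1. The 192 members fall into 119 families when copy numbers and letters are dropped from the symbols, and closely similar copies such as SNORD15A and SNORD15B, or the SNORD13 copies, may share probe signal, so that single copies are uncertain.

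C/D box RNAs pair with ribosomal RNA and direct ribose methylation by fibrillarin, the enzyme of a complex that also holds NOP56, NOP58 and SNU13. H/ACA box RNAs fold into hairpins and direct conversion of uridine to pseudouridine by dyskerin, with NOP10, NHP2 and GAR1. Small Cajal body RNAs carry the same boxes but are retained in Cajal bodies, where most direct the modification of spliceosomal small nuclear RNAs. A few C/D members, such as U3, U14 (SNORD14) and U13 (SNORD13), act in the cutting or acetylation of ribosomal RNA. Because most members have no promoter of their own, their amount can follow the transcription and splicing of the gene around them, the stability of their protein complex, or both.

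Each of 6 groups of cultured cells had 1 Affymetrix array, hybridised from 100 ng of total RNA. HCT116 is a line from a human colon cancer. It and HCT116-p53KO, its derivative described in the labels as p53-deficient, were transfected with control siRNA or with siRNA against NRF3, and RNA was taken after 48 h. NRF3, encoded by NFE2L3, is a transcription factor of the CNC family of basic leucine zipper proteins. H1299, a human line from non-small cell lung carcinoma, stably expressed NRF3 or, as control, GFP from a plasmid, under selection with G-418. No source used here says whether the p53KO and H1299 lines are clones or pools, or how many siRNA sequences were used. Replicate arrays of a group were not analysed here, so a difference between 2 arrays has no replicate check and no p-value.

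The values of NFE2L3 and CDKN1A went with the labels, and those of tissue markers did so only in part. The level of NFE2L3 (RMA log2 intensity, the deposited scale) went from 8.97 to 6.62 with NRF3 siRNA in HCT116, from 8.71 to 7.15 in HCT116-p53KO, and from 8.18 with GFP to 10.20 with the NRF3 plasmid in H1299. CDKN1A, a target of p53, lay at 9.82 and 9.98 in HCT116 and at 8.76 and 8.07 in HCT116-p53KO. Of colon markers, EPCAM, CDH1 and CDX2 were high in the HCT116 lines while VIL1, KRT20, CDH17 and LGR5 were below 6, and the lung markers NKX2-1 and SFTPB were below 6 in H1299. The median over all probe sets lay between 6.05 and 6.08 for H1299 and between 6.95 and 7.002 for the other 4 arrays, and levels were not compared across these sets. The arrays measure total RNA labelled by a whole-transcript method, which does not separate a mature small RNA from the intron that still contains it.

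The containing genes matter for what follows, so the starts of 4 of them are shown. RefSeq places 190 of the 192 members inside the span of another gene, and SNORD13 and SNORD32B inside none. A non-coding gene contained 73 members, a ribosomal protein gene 35, another protein-coding gene 75, and 7 lay in both coding and non-coding genes. GAS5, SNHG1, SNHG5 and ZFAS1 are classed as non-coding, and they contain 7, 2, 2 and 1 of the members. The 60 bases around each RefSeq start (GRCh38.p14, 30 before the start and 30 from it) lie at chr1:173869016-173869075 for GAS5, chr11:62855856-62855915 for SNHG1 and chr6:85678704-85678763 for SNHG5, all on the minus strand, and at chr20:49278612-49278671 on the plus strand for ZFAS1. Capitals mark the unbroken run of C and T that begins at the RefSeq start.
GAS5: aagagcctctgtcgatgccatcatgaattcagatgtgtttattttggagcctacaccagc
SNHG1: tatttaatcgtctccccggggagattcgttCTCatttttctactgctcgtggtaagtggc
SNHG5: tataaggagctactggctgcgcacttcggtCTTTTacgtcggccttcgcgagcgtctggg
ZFAS1: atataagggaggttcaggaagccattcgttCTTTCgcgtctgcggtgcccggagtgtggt

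Such a start, a C followed by C or T only, is the terminal oligopyrimidine tract known from ribosomal protein genes. Searched on the sense strand at the RefSeq start alone, a C that opens a run of at least 5 C or T was present in 4.04% of 27305 genes in the RefSeq table. It was present in 11 of 13 ribosomal protein genes that contain a member at 6 or more on some array, in 4 of 13 non-coding ones and in 10 of 48 other protein-coding ones, counting those found in the table. SNHG5 and ZFAS1 had it, SNHG1 had a run of 3, and the RefSeq start used for GAS5 began with another base. SNHG8, a non-coding gene that contains SNORA24 and whose start is not shown, had a run of 1. A single listed start per gene was searched, so a tract at any other start, of GAS5 or of another gene, would be missed. These are letters at an annotated start, and no value here tests the tract.

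SCARNA16 shares sequence with a microRNA, which bears on what its probe set reads. Of the 192 members, 1 overlapped a RefSeq hairpin: the last 77 bases of SCARNA16 (187 nt) are also the first 77 of the 81 bases of the MIR6516 hairpin, at chr17:77089417-77089497 (GRCh38.p14, plus strand). The ACA box that defines the H/ACA fold, which lies 3 bases before the end of the RNA, is in capitals.
MIR6516: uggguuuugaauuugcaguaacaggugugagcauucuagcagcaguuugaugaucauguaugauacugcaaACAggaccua

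A log2 intensity of 6 or more was used as the mark of a measured RNA. It was reached on all 6 arrays by 99 members, on some by 41 and on none by 52. By class, 52 of 115 C/D box members, 37 of 61 H/ACA box members and 10 of 16 Cajal body members reached it on all arrays. The 52 below it on every array included all 46 members of the imprinted clusters SNORD113 and SNORD114 (inside MEG8) and SNORD115 and SNORD116 (inside SNHG14), which are known from brain and are expressed from 1 parental chromosome. Of the other 69 C/D box members, 2 were below it on every array. Each probe set has its own brightness, so these counts say how many members could be measured and not which class is more abundant.

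The median level of the 115 C/D box members was 6.57 and 6.26 with control and NRF3 siRNA in HCT116, 6.64 and 6.82 in HCT116-p53KO, and 5.19 and 5.31 with GFP and NRF3 in H1299. For the 61 H/ACA box members it was 7.75, 7.76, 7.91, 7.78, 6.83 and 6.99 in that order. For the 16 Cajal body members it was 7.49, 7.32, 7.55, 7.63, 6.30 and 6.43. The members with the highest means included SNORD13 and SNORD57 (C/D), SNORA71D and SNORA3A (H/ACA) and SCARNA12 (Cajal body).

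**Figure D1:**
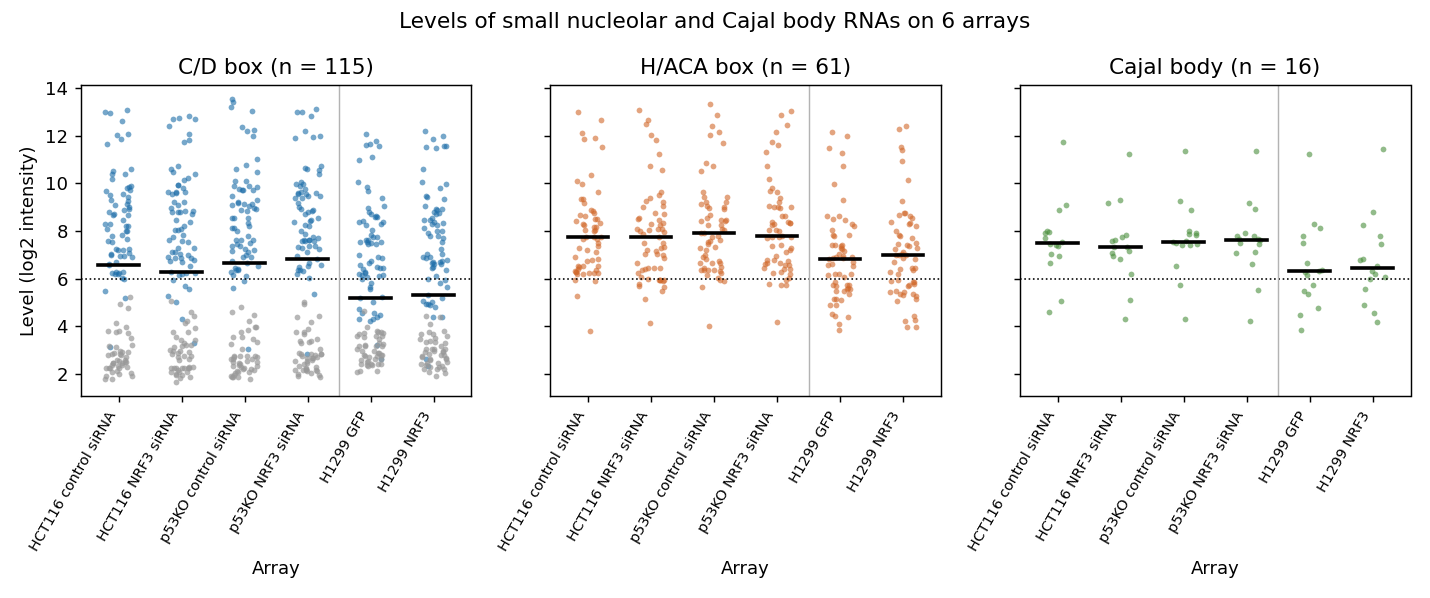
Log2 intensity (y axis) of every member on the 6 arrays (x axis), one panel per class; each point is 1 member, black bars are medians, the dotted line is the level of 6, the grey line separates sets of arrays that are not comparable in level, and grey points are the 46 members of the imprinted clusters. All 46 lie below 6 on every array, and the C/D box median stands between 6.26 and 6.82 on the HCT116-family arrays.

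NRF3 siRNA in HCT116 was accompanied by small differences in both directions. Differences are log2 level with NRF3 siRNA minus log2 level with control siRNA, over members that reached 6 on 1 array of the pair or on both. In bulk RNA a change in the number of RNA molecules per cell cannot be told apart from one in the share of cells that hold them. The median over 136 measured members was -0.08, with 55 above 0, where that over all 14034 measured genes was 0.01. At a threshold of 1.5-fold (0.58 on the log2 scale) 4 members were higher and 6 lower, or 2.94% and 4.41% of the members, against 2.71% and 6.02% of all genes. The class medians were -0.03 for 65 C/D box, -0.11 for 57 H/ACA box and -0.27 for 14 Cajal body members. Of the 136 members, 10 were at 6 on the control array alone, and among the 126 at 6 on both arrays 4 were higher and 3 lower at 1.5-fold.

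Of the 4 members 1.5-fold higher, 3 lay inside non-coding genes and SNORA57 inside the protein-coding CSKMT, and the 6 lower ones lay inside protein-coding genes, where 27 of the 136 measured members lie inside non-coding genes. SNORD12C, a methylation guide inside ZFAS1, went from 8.89 to 9.64, a difference of 0.75, while ZFAS1 itself differed by 0.36. SNORD75 (inside GAS5) went from 9.84 to 10.47. SNORA24, a pseudouridylation guide inside SNHG8, went from 10.10 to 10.73. SNORA57 and SNORA80B, which lies inside ODC1, had differences of 0.61 and 0.53. The 27 measured members inside non-coding genes had a median difference of 0.12 with 18 above 0, the 35 inside ribosomal protein genes a median of -0.07 with 15 above 0, and the 65 inside other protein-coding genes had a median of -0.19 with 18 above 0.

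The members lowest in HCT116 are given with their values in both lines, and since they were picked from the HCT116 pair the second difference is no comparison of the lines. SNORD56B went from 6.27 to 5.01, so that it was counted only through its control array, and differed by -0.04 in HCT116-p53KO. SNORD58A (inside RPL17) went from 7.80 to 6.87, SNORA36C from 6.37 to 5.46, SCARNA4 from 7.03 to 6.18 and SNORD61 from 6.21 to 5.55. Their differences in HCT116-p53KO were -0.04, -0.19, -0.26 and 0.01 in that order. The HCT116 array with NRF3 siRNA gave the lowest of the 4 HCT116-family values for 74 of 140 members (52.9%) and for 31.7% of all genes. Across the 136 members, which share both arrays, the difference correlated with the mean level (Pearson r = 0.33, Spearman rho = 0.36), dimmer members having the lower differences. The part of probe brightness in these differences was not tested.

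In HCT116-p53KO the same siRNA left the members centred on 0. The median over 139 measured members was 0.0023, with 71 above 0 and 68 below, and the class medians were 0.01 (67 C/D box), -0.00085 (58 H/ACA box) and -0.02 (14 Cajal body). SNORD75 was the 1 member at least 1.5-fold higher, or 0.719% of the members, and none was 1.5-fold lower, where 3.63% of all genes were higher and 2.38% lower. SNORD75 went from 9.72 to 10.39, SNORD38A from 7.01 to 7.58 and SNORD52 from 9.10 to 9.58. SNORD59B and SNORA13 differed by 0.49 and 0.47. At the other end SNORD13P3 went from 13.54 to 13.01, SNORA49 from 7.91 to 7.41 and SNORD41 from 12.38 to 11.90, each a decrease short of 1.5-fold.

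Of 135 members measured in both siRNA pairs, 35 were higher in both (25.9%), 47 lower in both (34.8%) and 53 had opposite signs (39.3%), against 31.5%, 30.2% and 38.2% of 13566 genes. These pairs of arrays share no sample. SNORD75 passed 1.5-fold in both lines, and no member did so downward. A limma fit over the 4 HCT116-family arrays, with line and siRNA as terms, gave a common standard error of 0.16 to every gene, so its calls depend on the mean of the 2 differences alone. At an adjusted p (limma, Benjamini-Hochberg over all genes, two-sided) of 0.05 it called 3 of 140 members higher and 7 lower with NRF3 siRNA, which is 2.14% and 5%, where 4.45% and 5.43% of 14148 genes were called. The p-values set that mean against a spread between these 2 lines that is pooled over all genes, and not against the gene's own spread.

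The 3 called higher all lie inside non-coding genes. SNORD75 had a mean difference of 0.65 (adjusted p = 0.00169), SNORA24 of 0.54 (adjusted p = 0.0136), with 0.63 in HCT116 and 0.45 in HCT116-p53KO, and SNORD12C of 0.49 (adjusted p = 0.0295), with 0.75 and 0.23. Of the 7 called lower, those that differed alike in both lines were SNORA14A (inside POR) at -0.60 and -0.46 with a mean of -0.53 (adjusted p = 0.0163), SNORA21 (inside RPL23) at -0.45 and -0.46 with a mean of -0.46 (adjusted p = 0.0482), and SNORD7, a guide for a spliceosomal RNA, at -0.58 and -0.37 with a mean of -0.48 (adjusted p = 0.0362). The means of SNORD56B (-0.65), SCARNA4 (-0.55), SNORA36C (-0.55) and SNORD58A (-0.49) came mainly from HCT116, where their differences were -1.26, -0.84, -0.91 and -0.93 against -0.04, -0.26, -0.19 and -0.04. SNORA36C reached 6 on the HCT116 control array alone, so it entered the test only through an array where it was high, and its call carries no weight. No call was left when the prior of the 6-array fit, which keeps a part of each gene's own spread, was put in place of the common one, and 1 was left after loess correction of the differences.

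**Figure D2:**
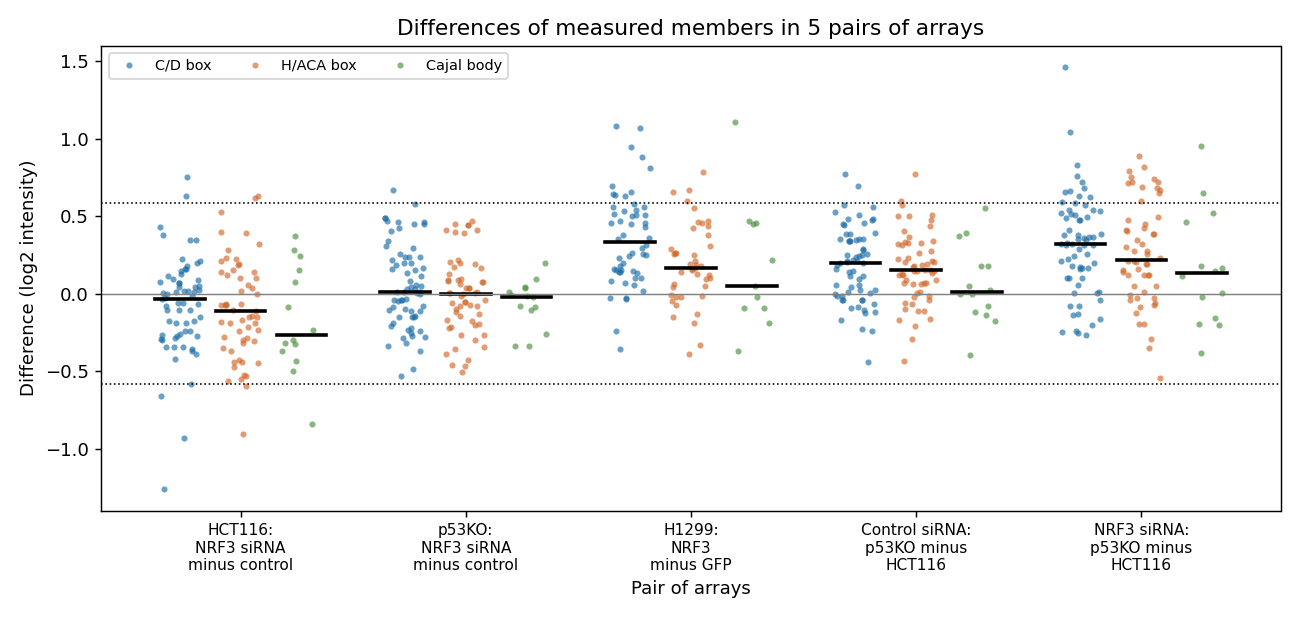
Difference of log2 intensity (y axis) in 5 pairs of arrays (x axis) for members that reached 6 on either array; points are members coloured by class, black bars are class medians and dotted lines mark 1.5-fold. The H1299 and both p53KO minus HCT116 pairs lie mostly above 0, with C/D box medians of 0.33, 0.20 and 0.32, and the siRNA pairs lie around 0, with C/D box medians of -0.03 and 0.01.

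Stable NRF3 in H1299 came with higher levels of most members. Of 108 measured, 87 were above 0 and the median difference, NRF3 minus GFP, was 0.23, where the median over 11304 genes was 0. At 1.5-fold 15 members were higher (13.9%) and none lower, against 4.82% and 4.20% of all genes. The 10 C/D box members among the 15 were 18.5% of the 54 measured, and that class had a median of 0.33 with 49 above 0. H/ACA box members had a median of 0.16, with 32 of 43 above 0 and 4 at 1.5-fold, and Cajal body members had a median of 0.05, with 6 of 11 above 0 and 1 at 1.5-fold. At 6 or more on both arrays stood 99 of the 108, and 12 of those 99 were 1.5-fold higher. By class these were 10 C/D box, 2 H/ACA box and 0 Cajal body members.

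The C/D box members inside non-coding genes had the highest median. All 16 measured were above 0, with a median of 0.51 and 5 at 1.5-fold. GAS5 contained 6 of the 16, SNHG1 2 and SNHG5 2, so these are fewer genes than members. Inside ribosomal protein genes 20 of 21 C/D box members were above 0, with a median of 0.18. C/D box members inside other protein-coding genes had a median of 0.25 with 11 of 15 above 0. H/ACA box members inside non-coding genes had a median of 0.18, with 5 of 7 above 0 and none at 1.5-fold. H/ACA box members inside ribosomal protein genes were above 0 in 11 of 11 cases with a median of 0.31. H/ACA box members inside other protein-coding genes were nearly balanced, with 12 of 21 above 0 and a median of 0.06. These subsets were formed from the annotation, with 1 array on each side, and the difference between them was not tested.

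**Figure D3:**
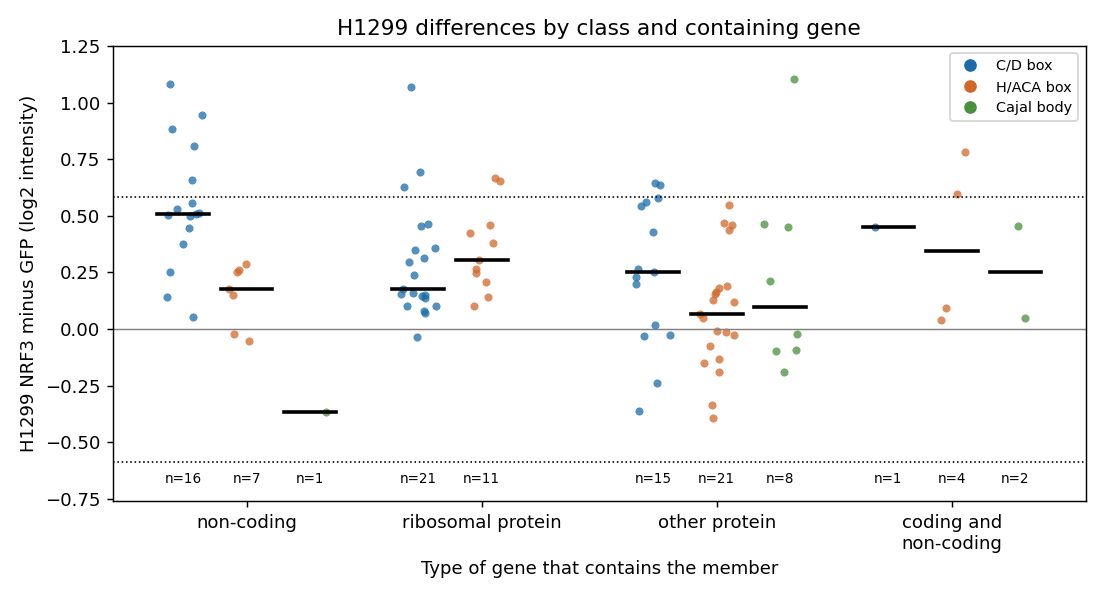
Difference of log2 intensity between the H1299 arrays, NRF3 minus GFP (y axis), by type of containing gene (x axis) and class (colour); points are members, black bars medians, dotted lines 1.5-fold, and the 1 measured member inside no gene is left out. All 16 C/D box members of non-coding genes, 6 of them inside GAS5, lie above 0.

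SNHG1 and GAS5, non-coding genes whose introns hold a row of C/D box RNAs, showed this member by member. Inside SNHG1, SNORD28 went from 8.98 to 10.06 and SNORD30 from 7.49 to 8.37 with NRF3 in H1299. Inside GAS5, SNORD79 went from 7.54 to 8.34, SNORD78 from 8.70 to 9.36, SNORD74 from 10.98 to 11.51, SNORD75 from 8.39 to 8.89, SNORD81 from 8.03 to 8.53 and SNORD44 from 9.07 to 9.45. All 6 measured GAS5 members were higher, by 0.38 to 0.81, and SNORD77 was below 6 on both arrays. In HCT116 the 7 GAS5 members were also higher with NRF3 siRNA, by 0.04 to 0.63, and in HCT116-p53KO 5 of 7 were, from -0.34 for SNORD81 to 0.67 for SNORD75. Of 3 further probe sets that name GAS5 together with a member, those with SNORD47 and SNORD80 differed by -0.31 and -0.25 in HCT116 and that with SNORD76 by 0.28, and in H1299 all 3 were higher, by 0.38 to 0.56.

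Members of one gene did not always sit together. SNORD15A and SNORD15B, near-identical RNAs inside RPS3, went from 7.74 to 8.81 and from 7.62 to 8.31 in H1299 and differed by -0.07 and -0.19 in HCT116. Inside SNHG5, SNORD50B went from 6.09 to 7.03 and SNORD50A from 7.75 to 8.26. The 4 members inside RPL13A, SNORD32A, SNORD33, SNORD34 and SNORD35A, were higher by 0.10 to 0.47 in H1299 without reaching 1.5-fold, and all 4 were lower in HCT116-p53KO with NRF3 siRNA, by 0.10 to 0.29 in size. The 3 inside TBRG4 ranged from -0.33 (SNORA5B) to 0.18.

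**Figure D4:**
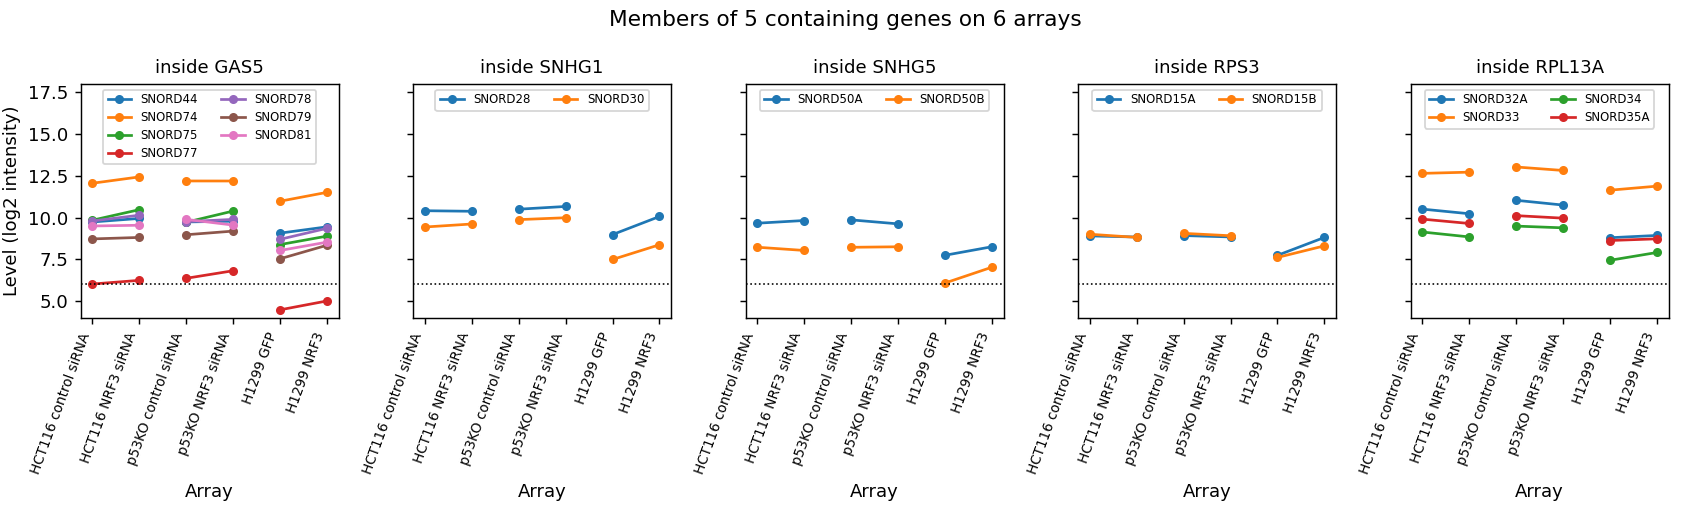
Log2 intensity (y axis) of the members inside GAS5, SNHG1, SNHG5, RPS3 and RPL13A on the 6 arrays (x axis); lines join the 2 arrays of a line, and the dotted line is the level of 6. Every member in these 5 panels is higher with NRF3 than with GFP in H1299, including SNORD77, which stays below 6.

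The other members past 1.5-fold in H1299 lay in protein-coding or mixed genes. SCARNA9L, a copy of the Cajal body RNA SCARNA9 inside EIF1AX, had the largest difference at 1.11, from 5.72 to 6.83, and so was at 6 on the NRF3 array alone. SNORA74A (inside SNHG4 and MATR3) differed by 0.78, SNORA33 (RPS12) by 0.67, SNORA6 (RPSA) by 0.65, SNORD14E (HSPA8) by 0.64, SNORD59B (ATP5F1B) by 0.64, SNORD58A (RPL17) by 0.63 and SNORA13 (EPB41L4A-AS1) by 0.59. SNORA33 and SNORA13 stood at 5.74 and 5.87 with GFP. Like SCARNA9L, they were counted only through the NRF3 array, where they were high. The lowest were SNORA70E at -0.39, SCARNA17 at -0.37, SNORD8 at -0.36, SNORA5B at -0.33 and SNORD13P2 at -0.24, none of which reached 1.5-fold.

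The containing gene's own probe set moved with its members in part. Over 62 members with a measured containing gene in H1299, 43 had the same sign as the gene, with a Pearson r of 0.44 and a Spearman rho of 0.39 between both differences across members, which share both arrays and in part their gene (48 genes). Of 7 members at 1.5-fold with such a gene, the gene of 1 was also 1.5-fold higher. In HCT116 the same correlation was r = 0.10 and rho = 0.25 over 83 members, and in HCT116-p53KO r = -0.16 and rho = -0.12 over 86. GAS5, SNHG1 and SNHG5 have no probe set with a single symbol here, so their own level was not used. Of non-coding host genes that do, ZFAS1, EPB41L4A-AS1, SNHG17 and SNHG29 differed in H1299 by 0.60, 0.60, 0.42 and 0.12.

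Over the 3 pairs that alter NRF3, 27 of 108 members measured in all (25%) were lower with both siRNA transfections and higher with the plasmid, 1 (SCARNA17) was the reverse (0.926%), and 30 were higher in all 3 pairs (27.8%). Over 10856 genes these shares were 16.9%, 16.8% and 15.1%. Of the 108 members 87 were higher in H1299, so the counts that need a higher H1299 value are the larger ones whichever way the siRNA pairs went. SNORA20, a pseudouridylation guide inside TCP1, went from 9.96 to 9.52 in HCT116, from 10.53 to 10.17 in HCT116-p53KO, and from 7.81 to 8.27 with NRF3 in H1299. SNORA14A, SNORD105, SNORD13P3 and SNORA49 followed NRF3 in the same way, with H1299 differences of 0.19, 0.26, 0.23 and 0.44. SNORA49 went from 5.75 to 6.18 in H1299, so it was counted there only through the NRF3 array, where it was high. A limma fit over all 6 arrays, with line and more or less NRF3 as terms, called 0 of 140 members in either direction at an adjusted p of 0.05, where 0.0069% of 14492 genes were called higher and 0% lower. At an unadjusted p (limma) of 0.05 it had 12 of 140 members higher and 0 lower, where 1615 of 14492 genes passed in either direction. SCARNA4 stood first with a mean difference of 0.57 (limma adjusted p = 0.301), and SNORA20 second with 0.42 (limma adjusted p = 0.329). Without the H1299 arrays the call reverts to the 4-array fit, with 10 members.

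Between the HCT116 lines the members were mostly higher in HCT116-p53KO. With control siRNA the median difference, HCT116-p53KO minus HCT116, was 0.15 over 138 measured members with 101 above 0, and 4 were 1.5-fold higher (2.90%) and none lower, where 0.868% of all genes were higher and 3.45% lower. With NRF3 siRNA it was 0.27 over 137 members with 108 above 0, and 26 were 1.5-fold higher (19.0%) and none lower, against 5.60% and 4.75% of all genes. All-gene medians were 0.0055 and 0.02. These 2 pairs share no array with each other, but each shares its arrays with the siRNA pairs above, and the HCT116 array with NRF3 siRNA, low for many members, stands in the second. Of the 26, 8 were at 6 in HCT116-p53KO alone, which leaves 18 among the 126 members at 6 on both arrays. Of the 4 with control siRNA, SNORD20 was at 6 in HCT116-p53KO alone, which leaves 3 among the 135 members at 6 on both arrays.

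The limma line effect over the 4 arrays was called for 19 of 140 members, all higher in HCT116-p53KO (13.6%), where 3.46% of all genes were called higher and 4.65% lower. The members inside NCL, which encodes the nucleolar protein nucleolin, were among them. SNORD82 went from 6.92 in HCT116 to 7.61 in HCT116-p53KO with control siRNA and from 6.68 to 7.36 with NRF3 siRNA (limma mean difference 0.69, adjusted p = 0.000651). SNORD20 went from 5.49 to 6.26 and from 5.27 to 6.31, below 6 on both HCT116 arrays, so that it was tested only through the arrays where it was high and its call, 1 of the 19, carries no weight. SNORA75, the third NCL member, had a mean of 0.50 (limma adjusted p = 0.0296). NCL itself differed by -0.06 and 0.22.

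Further members called in the line effect came from all 3 classes. SNORA24 went from 10.10 to 10.87 and from 10.73 to 11.33 (limma mean 0.68, adjusted p = 0.000767), and SCARNA4 from 7.03 to 7.40 and from 6.18 to 7.14 (limma mean 0.66, adjusted p = 0.00121). SNORA41 (EEF1B2), SNORA15 (CCT6A), SNORA20 (TCP1) and SNORA3B (RPL27A) had means of 0.66, 0.61, 0.61 and 0.59. SNORD56B had a mean of 0.85, made of 0.24 with control siRNA and 1.46 with NRF3 siRNA. Quantile normalization repeated over 6 arrays gave 8 calls in place of 19, and the prior of the 6-array fit gave none.

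The Cajal body members are given here one by one, since they are few. SCARNA12, inside PHB2, was the brightest and went from 11.74 to 11.24 in HCT116, from 11.34 to 11.35 in HCT116-p53KO and from 11.24 to 11.46 in H1299. SCARNA4 was lower with siRNA in both lines, from 7.03 to 6.18 and from 7.40 to 7.14, and went from 5.36 to 5.97 in H1299, short of 6. SCARNA1, SCARNA6, SCARNA7 and SCARNA10 were lower in both siRNA pairs too, by 0.30 and 0.34, 0.37 and 0.08, 0.09 and 0.34, and 0.33 and 0.03 in size. Of these SCARNA7 went from 8.31 to 8.78 and SCARNA6 from 6.34 to 6.79 in H1299.

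The remaining Cajal body members did not share a direction. SCARNA5, which lies inside ATG16L1 as SCARNA6 does, had differences of -0.24, -0.01 and -0.09 in HCT116, HCT116-p53KO and H1299. SCARNA8 had -0.32, 0.20 and -0.09, SCARNA9 0.37 and -0.02 in the HCT116 lines, and SCARNA9L -0.44, 0.03 and 1.11. SCARNA16, the RNA that shares its end with MIR6516, had 0.28, -0.11 and 0.46. SCARNA17 had 0.24, 0.04 and -0.37, SCARNA22 0.07, -0.08 and -0.19, and SCARNA11 0.15, 0.09 and 0.05. SCARNA14 and SCARNA23 were below 6 on every array.

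Members with a part in cutting or acetylating ribosomal RNA did not share a direction. SNORD13, needed with the enzyme NAT10 for acetylation of small-subunit RNA, went from 13.09 to 12.73 in HCT116, from 13.43 to 13.14 in HCT116-p53KO and from 12.06 to 12.19 in H1299. SNORD13P3, a copy inside KIF9, had nearly the same levels, from 12.97 to 12.69, from 13.54 to 13.01 and from 11.76 to 11.99. SNORD14C and SNORD14E, U14 copies inside HSPA8, were higher in all 3 pairs, by 0.16, 0.01 and 0.43 for SNORD14C and by 0.43, 0.31 and 0.64 for SNORD14E. NAT10 itself was higher in all 3 pairs, by 0.46, 0.38 and 0.63. The U3 probe sets, which name several SNORD3 copies and hold the same values, went from 9.59 in HCT116 to 10.59 in HCT116-p53KO with control siRNA and from 9.83 to 11.08 with NRF3 siRNA, and by less within each line, with 9.91 and 10.08 in H1299.

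The core proteins bound to the members stayed under 1.5-fold. Of the core proteins measured, FBL, NOP58 and RRP9 on C/D box RNAs and DKC1, NHP2, NOP10 and GAR1 on H/ACA box RNAs, none reached 1.5-fold in any of the 5 pairs. Among 14 assembly factors, 4 were 1.5-fold higher in H1299 with NRF3 (28.6%, against 4.82% of all genes): NUFIP1, the adaptor that brings C/D proteins together, at 0.75, NOPCHAP1 at 0.75, NOLC1 at 0.64 and ZNHIT6 at 0.63. In HCT116 with NRF3 siRNA 1 of the 14 was 1.5-fold lower (7.14%, against 6.02% of all genes), RPAP3 at -0.92. In HCT116-p53KO 2 were higher (14.3%, against 3.63% of all genes), TCOF1 at 0.65 and TAF15 at 0.59. NOLC1 was lower in HCT116-p53KO than in HCT116, by -0.87 with control siRNA and -0.67 with NRF3 siRNA.

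Cajal body factors were lower in HCT116 with NRF3 siRNA in 8 of 11 cases, 3 of them at 1.5-fold (27.3%, against 6.02% of all genes). These were ICE2, of the complex that transcribes small nuclear RNA genes, at -1.03, WRAP53, which carries Cajal body RNAs to the body, at -0.91, and USPL1 at -0.66. In HCT116-p53KO they differed by 0.11, -0.51 and -0.20. In H1299 1 of the 11 was 1.5-fold higher, ICE1 at 0.71, where 4.82% of all genes were. Of 16 factors of small RNA end processing and decay, 1 was 1.5-fold lower in HCT116 (6.25%, against 6.02% of all genes), TENT4B at -0.72. In H1299 1 of the 16 was 1.5-fold higher, EXOSC3 at 0.60, where 4.82% of all genes were.

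Factors of RNA polymerase I and ribosomal RNA processing stood higher in H1299 with NRF3. Of 26 measured, 20 were above 0, the median was 0.32, 7 were 1.5-fold higher and none lower, against 4.82% of all genes higher. They included DDX21, a helicase that binds small nucleolar RNAs, at 1.03, POLR1B, the second largest subunit of the polymerase, at 0.90, TAF1D at 0.78 and UTP15 at 0.72. In HCT116 with NRF3 siRNA the 27 measured had a median of 0.06 and none passed 1.5-fold. In HCT116-p53KO the median was 0.21 with 1 higher (3.70%, against 3.63% of all genes), NOL6 at 0.63.

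Recovery of small RNA during extraction can differ between samples, and other short RNAs were read beside the members for that reason. In H1299, 14 measured genes with RNU or RNVU symbols, mostly spliceosomal small nuclear RNAs, had a median of 0.27 with 12 above 0. At 1.5-fold 4 were higher (28.6%, against 4.82% of all genes), among them RNU4-1 at 1.51 and RNU4-2 at 1.34. RNU4-2 stood at 4.67 with GFP and 6.02 with NRF3, so it was counted only through the NRF3 array, where it was high. In the p53KO minus HCT116 pairs 21 RNU or RNVU genes had medians of 0.25 and 0.49. Of these 4 and 8 were at 1.5-fold (19.0% and 38.1%, against 0.868% and 5.60% of all genes). In the siRNA pairs their medians were -0.05 and 0.08. The RNU medians thus stood on the same side of 0 as the C/D box medians in all 5 pairs, though the C/D box medians of the siRNA pairs, -0.03 and 0.01, lay near 0. In HCT116-p53KO the H/ACA box and Cajal body medians, -0.00085 and -0.02, lay on the other side. In each siRNA pair 2 of 21 RNU genes were 1.5-fold lower (9.52%, against 6.02% and 2.38% of all genes). These were RNU5D-1, at -1.08 and -0.87, and RNU5F-1, at -0.71 and -0.67.

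Other short RNAs did not stand with the C/D box and RNU medians throughout. Genes with MIR symbols, whose probes can read the primary transcript, had medians of 0.11 and -0.10 in the siRNA pairs, -0.05 in H1299 and -0.02 and -0.21 between the lines. RMRP differed by 0.31 and RPPH1 by -0.41 in H1299, and by 0.40 and 0.50 between the lines with control siRNA. Members shorter than 100 nt had higher medians than longer ones in each pair, at 0.36 against 0.16 in H1299, 0.20 against 0.15 and 0.33 against 0.20 between the lines, 0.0014 against -0.15 in HCT116 and 0.03 against -0.02 in HCT116-p53KO. All members shorter than 100 nt were C/D box members, since the shortest H/ACA box and Cajal body members had 123 and 125 nt. Length and class are therefore not separate in this contrast. The part of small RNA recovery in the differences of the members was not tested.

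**Figure D5:**
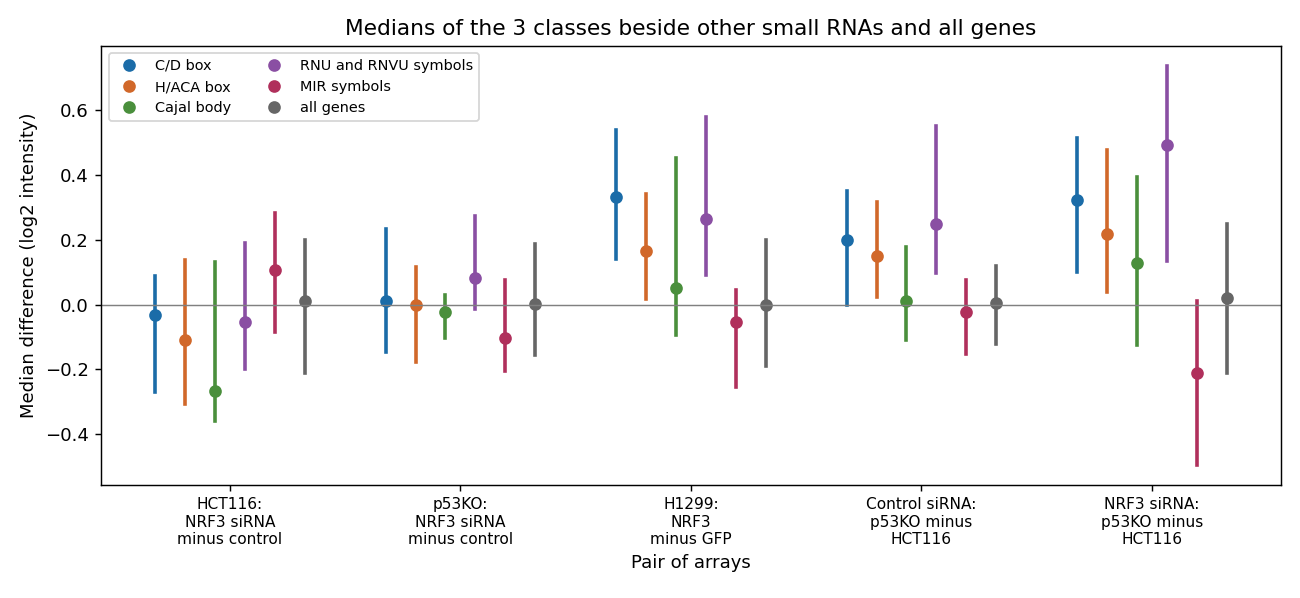
Median difference of log2 intensity (y axis, points) with the range from the 25th to the 75th percentile (vertical lines) in 5 pairs of arrays (x axis) for the 3 classes, for genes with RNU or RNVU symbols, for genes with MIR symbols and for all genes. The RNU medians, at 0.27, 0.25 and 0.49 in the last 3 pairs, stand beside the C/D box medians, and the MIR medians lie at or below 0 there.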

How the data were processed

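The deposited values are log2 intensities. The submitters' processing notes name RMA and Affymetrix Expression Console for the authors' step, without versions, and no source used here gives the genome build of the probes or the arrays normalized together. Mean differences of sorted values were 0.0326 for the H1299 arrays, 0.0157 to 0.0703 within the HCT116 family and 0.779 to 0.805 between these sets. Gene names came from the array's annotation table, and 192 of 192 members matched the RefSeq gene table (GRCh38.p14) by gene number, which gave names, lengths and containing genes (by span, without strand). Differences covered genes that reached 6 on either array of a pair and were counted at 1.5-fold. limma 3.58.1 in R 4.3.3 was fitted to 4 arrays (line and siRNA, 1 residual degree of freedom) and 6 arrays (line and NRF3, 2 residual degrees of freedom), with Benjamini-Hochberg adjustment over all genes tested, two-sided at 0.05, and was tested on simulated data. With 1 array per group, p-values rest on how differences vary between lines, pooled over all genes in the 4-array fit and in part pooled in the 6-array fit.

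Named members were the 5 largest differences each way per pair, the 5 most shared each way, those limma called (up to 10 each way), all SCARNA genes, members that process ribosomal RNA and members inside GAS5, SNHG1, RPL13A and the imprinted clusters, plus up to 4 genes per list. Other members past 1.5-fold, and those inside SNHG5, RPS3 and TBRG4, were named after their values were seen. Members and lists were chosen with earlier results of these data known. Alternatives covered the filter, the threshold, the row per gene, 1 member per family, the mean, renormalization, loess correction (span 0.4), the limma prior and leaving out each line. Promoter and hairpin sequences come from RefSeq tables, and sequences of the members themselves were not used here. The knocked-out gene itself is not analysed here.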

Additional observations from a re-analysis of the deposited data

Results flagged for a closer look

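SNORD38B and SNORA80B had differences of opposite sign in the siRNA pairs. SNORD38B, a C/D box member, went from 7.25 to 6.86 with NRF3 siRNA in HCT116 and from 7.23 to 7.69 in HCT116-p53KO, so that the HCT116 difference minus the HCT116-p53KO difference was -0.85. SNORA80B, an H/ACA box member inside ODC1, went from 7.74 to 8.27 and from 8.07 to 7.73, which gives 0.87. With 1 array per group the difference between the lines was not tested.

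Probe sets that carry a member's symbol and others were outside every count above, and 12 of them were at least 1.5-fold higher in H1299 with NRF3 than with GFP. Those that name SNHG1 with SNORD25, SNORD27, SNORD26 and SNORD22 differed by 1.29, 1.20, 0.998 and 0.76. Those that name TAF1D with SNORA40, SNORD5 and SNORA1 differed by 0.96, 0.94 and 0.66. SNORA4 with EIF4A2 differed by 1.08, SNORA33 with SNORD101 by 0.91, SNORA9 with SNHG15 by 0.73 and SNORA61 with SNHG12 by 0.61. The probe set of SNORD116-6 and SNORD116-2 differed by 0.95, from 5.25 to 6.20, although all 46 singly named members of the imprinted clusters were below 6. With GFP the probe sets of SNORD25, SNORD27 and SNORD22, and that of SNORA33 with SNORD101, stood at 5.24, 5.88, 5.89 and 5.36. Like that of SNORD116-6 and SNORD116-2, they were counted only through the NRF3 array, where they were high. The 76 probe sets with several symbols hold 63 distinct sets of values. Of these 48 were measured in H1299, with a median of 0.42, 44 above 0 and none 1.5-fold lower. The 12 at 1.5-fold higher are among these 48, where 4.82% of all genes were 1.5-fold higher. In the other pairs the same probe sets held larger single differences, named here after their values were seen. That of MIR664B, SNORA36A and DKC1 went from 8.21 to 6.08 with NRF3 siRNA in HCT116 and from 6.95 to 6.68 in HCT116-p53KO. That of SNORA31 and TPT1 was higher in HCT116-p53KO than in HCT116 by 1.76 with control siRNA and 1.87 with NRF3 siRNA, and SNORA61 with SNHG12 was higher by 1.32 with NRF3 siRNA in HCT116-p53KO.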

How the results depend on the processing

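Of 140 class and total medians recomputed under the alternatives, 138 stayed within 0.16 of the reported value and 8, all in medians near 0, changed sign. The 2 that moved further were the C/D box median in H1299, 0.14 without a filter, and the Cajal body median there, 0.21 with a filter of 7. Counts at 1.5-fold moved with the threshold. At 2-fold the counts higher were 0 in HCT116, 0 in HCT116-p53KO, 3 in H1299, 0 between the lines with control siRNA and 2 with NRF3 siRNA, with 1 lower in HCT116. The measured members numbered 136, 139, 108, 138 and 137 in that order. Over all genes 31 of 14034, 38 of 13680, 77 of 11304, 27 of 13827 and 78 of 14007 were 2-fold higher. Those 2-fold lower numbered 144, 59, 129, 180 and 189. Some members in the 2-fold counts were at 6 only on the array where they were high. These were SCARNA9L in H1299, and SNORD20 and SNORD56B, the 2 between the lines with NRF3 siRNA. SNORD56B was also the 1 lower in HCT116, where it was counted only through its control array. At the lowest threshold tried, which lay below 1.5-fold, the member counts were 12, 20, 42, 39 and 60 higher and 29, 13, 4, 3 and 3 lower. No all-gene share is given at that threshold, so whether these counts are unusual was not tested. Without a filter, 3 were higher and 1 lower in HCT116-p53KO, 4 lower in H1299 and 2 and 3 lower between the lines. With a filter of 7, 3 were lower in HCT116 and 17 higher between the lines with NRF3 siRNA. Loess correction gave 11 lower in HCT116, 2 higher in HCT116-p53KO and 1 lower between the lines with NRF3 siRNA, and quantile normalization 2 higher with control siRNA and 1 lower with NRF3 siRNA. Members called by limma for NRF3 siRNA numbered 3 under quantile normalization, 1 with loess correction, 6 without a filter and 0 with the prior of the 6-array fit. For the line effect they numbered 29 at an adjusted p of 0.10, 8 under quantile normalization and 0 with that prior. Leaving out 1 line from the 6-array fit gave 0 to 10. The cause of these shifts was not tested. No paired analysis was possible because the labels carry no replicate numbers to pair by, beyond the cell line, which both limma fits already hold as a term. Dim probe sets and 1 array per group limit the precision of every value.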
